A study of Danio rerio with 4 samples.

Results

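The genes examined are those of glycosaminoglycan chain synthesis: every gene whose deposited pathway text names a glycosaminoglycan biosynthesis pathway of any type. This rule finds 80 of the 25522 genes listed in the Ribo-seq table. Of these, 5 stand in both the heparan sulfate and the chondroitin or dermatan sulfate pathway and are called linker genes here. The heparan sulfate pathway alone holds 26 genes, the chondroitin or dermatan sulfate pathway alone holds 27, and the keratan sulfate pathway holds 22.

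The libraries come from brain tissue of zebrafish (Danio rerio), with 1 library from nop2 mutant fish and 1 from fish labelled nop2 sibling for Ribo-seq, and 1 of each for RNA bisulfite sequencing. The Nop2 protein methylates RNA in the nucleolus and is needed to build the large ribosomal subunit. The titles give the age of both groups as 48 dpf and the design text as 48 hpf, and the labels do not settle which is right. Not given in the sources used here are the mutant allele, the genotypes pooled as siblings and the number of animals per library. The labels name the material as whole brain cells and give neither group any further treatment. Ribo-seq counts RNA fragments shielded by ribosomes during nuclease digestion, so a gene's count holds both the amount of its transcript and the ribosomes on it.

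Glycosaminoglycans are long sugar chains attached to core proteins, which are then called proteoglycans, at the cell surface and in the extracellular matrix. Heparan and chondroitin sulfate chains start on the same linker sugars and part at the next sugar, after which polymerases lengthen them and sulfotransferases and epimerases pattern them. Keratan sulfate is built on other glycans by enzymes that also extend ordinary poly-lactosamine chains. In the brain, heparan sulfate takes part in growth factor signalling and axon guidance, and chondroitin sulfate is the main chain of the neural extracellular matrix and of cartilage.

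Footprint reads totalled 20696345 (sibling) and 18884879 (mutant), and 1 read came to 0.0483 and 0.0530 CPM, counts scaled to the library total. Footprints on nop2 itself numbered 657 (sibling) and 41 (mutant), a log2 ratio of mutant over sibling of -3.85 with a 95% counting interval of -4.36 to -3.41. With 1 library per genotype no difference has a replicate check. Each interval of a gene's ratio or of a summed level covers the counting error of these libraries only, and no p-value was computed. An interval beside a median is taken from the ranked ratios of its genes. It bounds the median as if the genes were independent draws. It does not give the range of their ratios and is not a counting interval. A gene is called measured where its mean over both libraries reached 1 CPM, which held for 18127 genes. Markers of brain cells were present, with the neuronal RNA-binding protein gene elavl3 at 386 and 396 CPM and the glial filament gene gfap at 196 and 164 CPM.

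Genes that build and modify heparan sulfate and chondroitin or dermatan sulfate carried fewer footprints in the mutant library as a rule, and genes that extend keratan sulfate or poly-lactosamine chains carried more. Of the 80 members, 59 were measured, and 41 of these had a log2 ratio below 0 and 18 above 0. Over all measured genes 55.1% had a ratio below 0 and 44.9% above 0. The counting interval lay below 0 for 26 members, or 44.1%, against 31.9% of all measured genes, and above 0 for 6, or 10.2%, against 25.2%. For the other 27 members the interval included 0. The median ratio of the members was -0.36, with an exact order-statistic interval over genes of -0.43 to -0.12, and that of all measured genes was -0.06. Members with low counts have wide intervals, and the members' median level of 5.73 CPM was below the 12.4 CPM of all measured genes.

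In the mutant library 7 members were lower by at least 2-fold, or 11.9%, against 5.70% of all measured genes. They are ext1c, hs3st1l2, hs3st2, csgalnact1a, csgalnact2, chst7 and chst1. Higher by at least 2-fold was B4GALT1 alone, or 1.69%, against 4.72%. At 1.5-fold 15 members were lower, or 25.4%, against 14.5% of all measured genes, and 5 were higher, or 8.47%, against 12.4%. Of the 59 measured members, 5 reached the minimum through 1 library only: ext1c, hs3st2, csgalnact1a and csgalnact2 through the sibling library and hs3st3l through the mutant library. A gene that passes through 1 library only had to differ, so the 2-fold count rests largely on the filter: 4 of the 7 genes at least 2-fold lower are among these. Of the 54 members at 1 CPM or more in both libraries, 3 were at least 2-fold lower, or 5.56%, against 4.25% of the 17404 genes at that level, and 1 was at least 2-fold higher, or 1.85%, against 3.86%. The share at least 2-fold lower was thus near the background. At that level 11 members were at least 1.5-fold lower, or 20.4%, against 13.0%, and 4 were at least 1.5-fold higher, or 7.41%, against 11.4%. The interval lay below 0 for 22 of these members, or 40.7%, against 31.4%, and above 0 for 6, or 11.1%, against 25.0%.

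**Figure D1:**
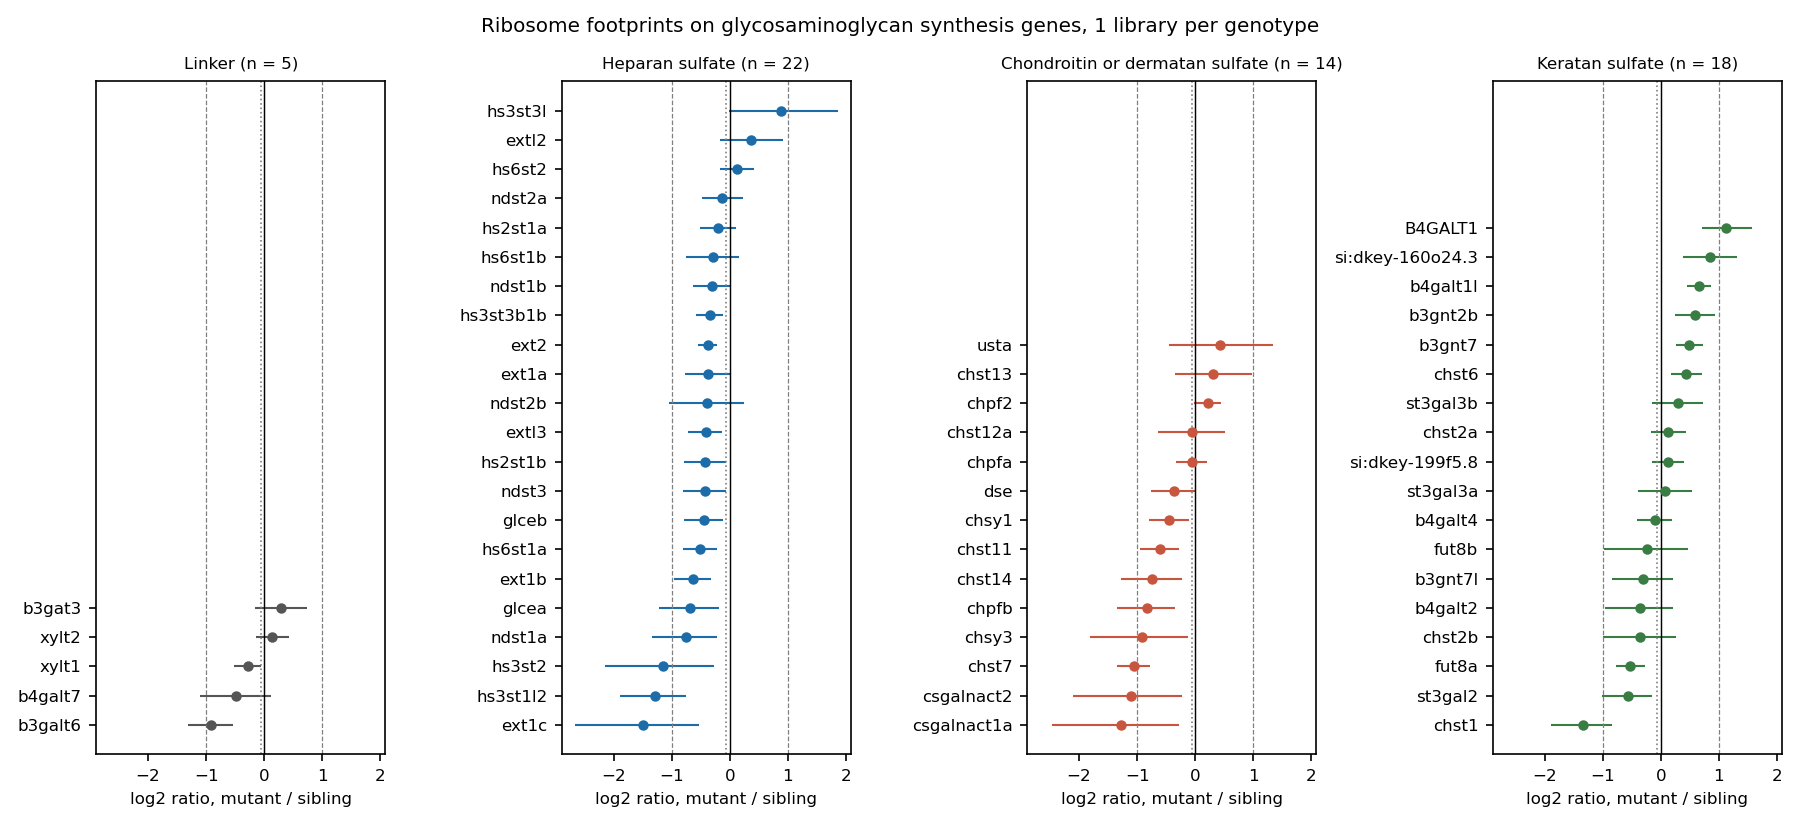
Log2 ratio of mutant over sibling footprints (x axis) for the 59 measured members, in 4 panels by chain type. Points are single genes, bars are 95% counting intervals, dashed lines mark 2-fold, and the dotted line marks the median of all measured genes at -0.06. With scaling to library totals, no heparan or chondroitin sulfate gene has its whole interval above 0, and 6 of 18 keratan sulfate genes do (33.3%, against 25.2% of all measured genes).

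The 3 chain types did not show the same balance. Of 22 measured heparan sulfate genes, 19 had a ratio below 0, 13 had the whole interval below 0, and none had it above 0, with a median of -0.40 (-0.63 to -0.30). Of 14 measured chondroitin or dermatan sulfate genes, 11 had a ratio below 0, 8 had the interval below 0 and none above 0, with a median of -0.53 (-1.06 to 0.22). Of 18 measured keratan sulfate genes, 8 had a ratio below 0 and 10 above 0, with 3 intervals below 0, 6 above 0 and a median of 0.10 (-0.36 to 0.49). The keratan sulfate share with intervals above 0 was 33.3%, near the 25.2% of all measured genes, and its share below 0 was 16.7% against 31.9%. The shares below 0 were 59.1% for heparan and 57.1% for chondroitin or dermatan sulfate, and 57.9% and 50.0% among genes at 1 CPM or more in both libraries. At that level the medians of these chain types were -0.39 and -0.41. Under TMM scaling, a trimmed-mean library factor, the intervals of hs3st3l and chpf2 also lay above 0. The keratan sulfate median changed sign under some settings: it was -0.01 with the authors' TPM values or with whole-number counts only, and -0.17 without a minimum level. Summed over the measured genes, heparan sulfate enzymes took 183 CPM (sibling) and 142 CPM (mutant), a log2 ratio of -0.37 (-0.44 to -0.30). Chondroitin or dermatan sulfate enzymes took 88.3 and 68.4 CPM, a ratio of -0.37 (-0.47 to -0.26). Keratan sulfate enzymes took 129 and 146 CPM, a ratio of 0.18 (0.10 to 0.26). The counting intervals of the summed keratan sulfate ratio and of the other sums do not overlap. With 1 library per genotype the difference between chain types could not be tested against replicate error.

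**Figure D2:**
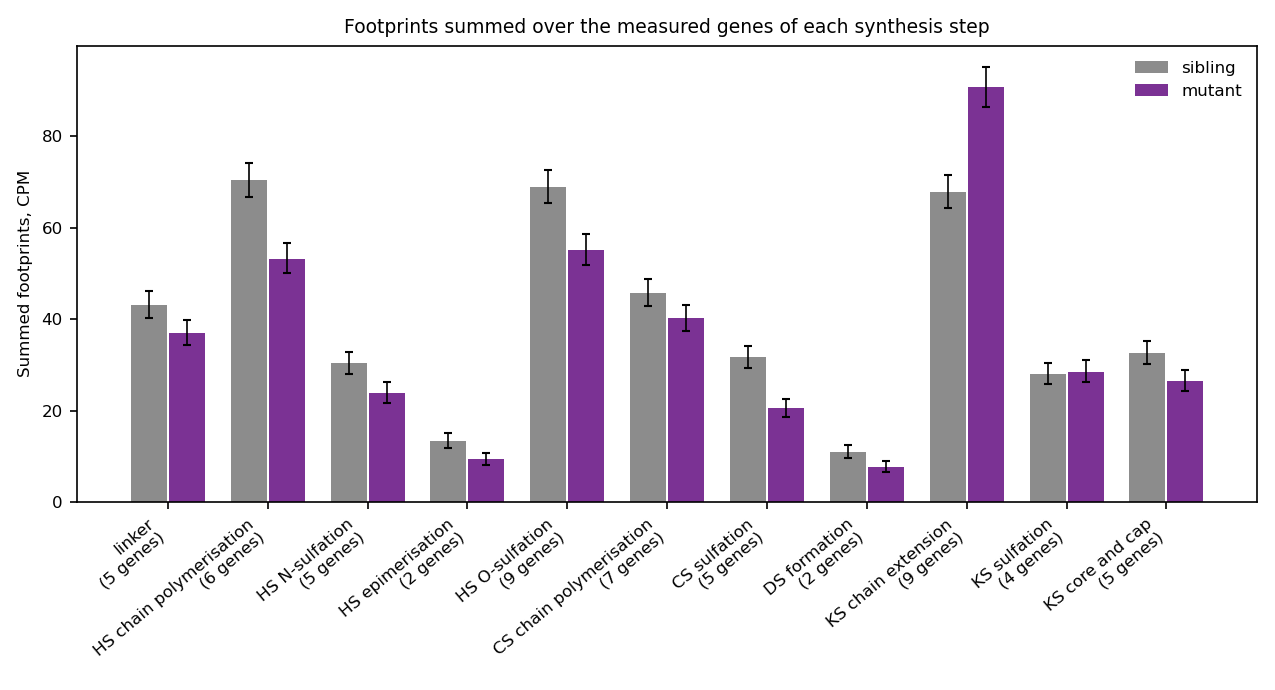
Summed footprints in CPM (y axis, from 0) of the measured genes at each synthesis step, with grey bars for the sibling and purple bars for the mutant library. Error bars are exact 95% Poisson intervals of the summed counts. The mutant bar is lower at the linker and at each heparan, chondroitin and dermatan step, and higher at keratan chain extension (67.9 against 90.8 CPM).

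The 5 linker genes build the short sugar stem that heparan and chondroitin sulfate share, and all of them were measured. The xylosyltransferase gene xylt1, whose product starts the stem on the core protein, had 370 sibling and 277 mutant reads (17.9 and 14.7 CPM), a ratio of -0.28 (-0.52 to -0.06). Its partner xylt2 had 208 and 209 reads (10.1 and 11.1 CPM), with an interval that includes 0 at 0.14 (-0.14 to 0.42). The galactosyltransferase gene b3galt6, which adds the second galactose, had 174 and 84 reads (8.41 and 4.45 CPM), a ratio of -0.91 (-1.31 to -0.53). It lay lowest of the linker genes, and the xylosyltransferases at the first step differed from each other in sign. For b4galt7 (60 and 39 reads) and b3gat3 (81 and 90 reads), which add the first galactose and the closing glucuronic acid, the intervals at -0.48 (-1.11 to 0.12) and 0.28 (-0.17 to 0.74) included 0. Summed, the linker genes took 43.1 and 37.0 CPM, a ratio of -0.22 (-0.37 to -0.08).

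The heparan sulfate polymerase is a complex of Ext1 and Ext2, and the table lists 1 ext2 gene and the ext1 genes ext1a, ext1b and ext1c. The gene ext2, which is altered in the zebrafish mutant dackel, had 767 sibling and 539 mutant reads (37.1 and 28.5 CPM), a ratio of -0.38 (-0.54 to -0.22). The gene ext1b had 226 and 133 reads (10.9 and 7.04 CPM), a ratio of -0.63 (-0.95 to -0.32). The gene ext1a had 134 and 94 reads (6.47 and 4.98 CPM), a ratio of -0.38 with an interval that just includes 0 (-0.78 to 0.01). The genes ext2, ext1b and ext1a thus all had ratios below 0, as did 54.9% of genes at 1 CPM or more in both libraries. The intervals of ext2 and ext1b lay below 0, as did 31.4% of genes at that level. The fewest reads fell on ext1c, with 35 and 11 (1.69 and 0.582 CPM), and its ratio of -1.49 (-2.66 to -0.53) was the lowest of all measured members. It passed the minimum through the sibling library only, which favours a low ratio, so it is not counted with the other polymerase genes above.

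On a scale per gene length, TPM as the authors deposited it, the ext1 genes together stood at 9.62 (sibling) and 5.60 (mutant). Of this level, ext1b gave 48.0% and 51.0%, ext1a 28.9% and 36.6%, and ext1c 23.2% and 12.4%. The total and the shares thus depend in part on ext1c, which had 35 and 11 reads. It passed the minimum through the sibling library only, which favours a lower mutant level. The gene ext2 stood at 16.1 and 11.9 TPM, above the summed ext1 genes in both libraries. Among the exostosin-like genes, extl3, whose product takes part in starting the chain and whose mutant is boxer, had 240 and 164 reads (11.6 and 8.68 CPM), a ratio of -0.42 (-0.71 to -0.12). For extl2, with 55 and 65 reads (2.66 and 3.44 CPM), the ratio was 0.37 (-0.17 to 0.92) and the interval included 0. Over these 6 polymerisation genes, ext1c included, the summed level was 70.4 CPM (sibling) and 53.3 CPM (mutant), a ratio of -0.40 (-0.52 to -0.29).

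The Ndst enzymes replace acetyl groups by sulfate on the new heparan chain, the step on which later modification depends. All 5 ndst genes had ratios below 0, from -0.76 to -0.12, as did 55.1% of all measured genes. Of the intervals 2 lay below 0, or 40%, near the 31.9% of all measured genes. The gene ndst1b had 185 sibling and 137 mutant reads (8.94 and 7.25 CPM), with a ratio of -0.30 (-0.63 to 0.03). The gene ndst2a had 153 and 128 reads (7.39 and 6.78 CPM), with a ratio of -0.12 (-0.48 to 0.22). The gene ndst3 had 158 and 107 reads (7.63 and 5.67 CPM), with a ratio of -0.43 (-0.80 to -0.07). The first of these intervals just reaches past 0, the next holds 0 well inside, and that of ndst3 lies below 0. Counts of ndst3 and ndst1a were fractional in the sibling library and summed to a whole number, and the pair together had 238 and 150 reads, a ratio of -0.53 (-0.84 to -0.23). Summed over the 5 genes the level was 30.3 and 23.9 CPM, a ratio of -0.35 (-0.52 to -0.17).

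The C5-epimerase turns glucuronic into iduronic acid and is encoded by the duplicates glcea and glceb. The gene glceb had 185 sibling and 124 mutant reads (8.94 and 6.57 CPM), a ratio of -0.44 (-0.79 to -0.11). The gene glcea had 92 and 52 reads (4.45 and 2.75 CPM), a ratio of -0.68 (-1.21 to -0.19). Both copies were lower beyond counting error, and glceb made up 66.8% (sibling) and 70.5% (mutant) of the pair's reads, with overlapping exact binomial intervals.

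The O-sulfotransferases place the remaining sulfates on heparan, and 7 of 9 measured genes had ratios below 0, or 77.8%, against 55.1% of all measured genes. The 3-O-sulfotransferase gene hs3st3b1b had 368 sibling and 264 mutant reads (17.8 and 14.0 CPM), a ratio of -0.35 (-0.58 to -0.12). The gene hs3st1l2, of the same enzyme family, had 103 and 38 reads (4.98 and 2.01 CPM), a ratio of -1.29 (-1.88 to -0.76). A further 3-O-sulfotransferase gene, hs3st2, had 37 and 15 reads (1.79 and 0.794 CPM), a ratio of -1.14 (-2.14 to -0.27), and passed the minimum through the sibling library only. In the other direction, hs3st3l had 17 and 29 reads (0.821 and 1.54 CPM), with a ratio of 0.89 (-0.01 to 1.86), an interval that just includes 0. It passed the minimum through the mutant library only. Summed, the 4 measured 3-O-sulfotransferase genes took 25.4 and 18.3 CPM, a ratio of -0.47 (-0.67 to -0.27).

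The 6-O-sulfotransferase gene hs6st1a had 255 sibling and 164 mutant reads (12.3 and 8.68 CPM), a ratio of -0.50 (-0.80 to -0.22). Its mutant count was fractional and summed to a whole number with that of hs6st1b, and the pair together had 352 and 236 reads, a ratio of -0.44 (-0.69 to -0.20). The gene hs6st2 had 196 and 195 reads (9.47 and 10.3 CPM), with an interval that includes 0 at 0.12 (-0.17 to 0.42). Of the 2-O-sulfotransferase duplicates, hs2st1b had 160 and 109 reads, a ratio of -0.42 (-0.79 to -0.06), and hs2st1a had 196 and 156 reads, with a ratio of -0.20 (-0.51 to 0.11). Over the 9 measured genes the level was 69.0 CPM (sibling) and 55.2 CPM (mutant), a ratio of -0.32 (-0.44 to -0.21).

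Chondroitin chains are begun by the Csgalnact enzymes and lengthened by chondroitin synthases and their polymerising factors. Of the measured members csgalnact1a, a starting enzyme gene, had the lowest level per length, at 0.54 TPM over both libraries. It had 30 sibling and 11 mutant reads (1.45 and 0.582 CPM), a ratio of -1.28 (-2.46 to -0.28). The gene csgalnact2 had 36 and 15 reads (1.74 and 0.794 CPM), a ratio of -1.10 (-2.11 to -0.23). Both passed the minimum through the sibling library only, which favours a low ratio, and on few reads. The duplicate csgalnact1b had 1 read in each library.

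Of the 5 chondroitin synthase and polymerising factor genes, 4 had ratios below 0 and 3 had intervals below 0. These shares were 80% and 60%, against 55.1% and 31.9% of all measured genes. The polymerising factor gene chpf2 had 300 sibling and 318 mutant reads (14.5 and 16.8 CPM), with a ratio of 0.22 (-0.02 to 0.45). The gene chpfa had 257 and 225 reads (12.4 and 11.9 CPM), with a ratio of -0.06 (-0.32 to 0.20). Their sibling counts were fractional and summed to a whole number, and the pair together had 557 and 543 reads, with a ratio of 0.10 (-0.08 to 0.27). The intervals of both genes and of their sum include 0 with scaling to library totals, and that of chpf2 lies above 0 under TMM scaling. The chondroitin synthase gene chsy1 had 179 and 119 reads (8.65 and 6.30 CPM), a ratio of -0.45 (-0.80 to -0.11). The other members of the step, chpfb with 104 and 53 reads at -0.83 (-1.35 to -0.35) and chsy3 with 40 and 19 reads at -0.92 (-1.81 to -0.12), were lower beyond counting error. Over the 7 measured genes of chondroitin polymerisation the level was 45.7 and 40.2 CPM, a ratio of -0.18 (-0.32 to -0.04), while the median gene stood at -0.83. Both values include csgalnact1a and csgalnact2, which passed the minimum through the sibling library only. Over the 5 synthase and polymerising factor genes the median was -0.45 and the summed ratio -0.13 (-0.27 to 0.01), an interval that includes 0.

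Chondroitin sulfation showed the lowest summed ratio of the steps, with most of its reads on chst7 and chst11. The 6-O-sulfotransferase gene chst7 had 336 sibling and 147 mutant reads (16.2 and 7.78 CPM), a ratio of -1.06 (-1.35 to -0.78). The 4-O-sulfotransferase gene chst11 had 205 and 122 reads (9.91 and 6.46 CPM), a ratio of -0.61 (-0.95 to -0.29). The 4-O-sulfotransferase gene chst12a had 56 and 49 reads (2.71 and 2.59 CPM), with a ratio of -0.06 (-0.64 to 0.52). The first pair was lower beyond counting error, and chst12a was not. The remaining measured genes, chst13 and the uronyl 2-O-sulfotransferase gene usta, had ratios of 0.31 and 0.43 with intervals that include 0. Over the 5 measured genes the level was 31.7 CPM (sibling) and 20.5 CPM (mutant), a ratio of -0.63 (-0.81 to -0.45), while the median gene stood at -0.06.

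Dermatan sulfate arises when Dse epimerises chondroitin and Chst14 fixes the product by 4-O-sulfation. The epimerase gene dse had 136 sibling and 96 mutant reads (6.57 and 5.08 CPM), with a ratio of -0.37 and an interval that just includes 0 (-0.76 to 0.02). The gene chst14 had 90 and 49 reads (4.35 and 2.59 CPM), a ratio of -0.74 (-1.28 to -0.23). The related epimerase gene dsela lay under the minimum, with 17 reads in each library. Together dse and chst14 took 10.9 and 7.68 CPM, a ratio of -0.51 (-0.82 to -0.20).

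Keratan sulfate and poly-lactosamine chains are extended by N-acetylglucosaminyltransferases (B3gnt) and galactosyltransferases (B4galt) acting in turn. Of 9 measured genes, 6 had ratios above 0, as did 44.9% of all measured genes. The interval lay above 0 for 5 of them, or 55.6% of the 9, against 25.2% of all measured genes. The galactosyltransferase gene b4galt1l had 327 sibling and 472 mutant reads (15.8 and 25.0 CPM), a ratio of 0.66 (0.46 to 0.87). The gene listed as B4GALT1 (ENSDARG00000002634), of the same enzyme type, had 70 and 140 reads (3.38 and 7.41 CPM), a ratio of 1.13 (0.71 to 1.57). The mutant counts of this pair were fractional and summed to a whole number, and together they had 397 and 612 reads, a ratio of 0.76 (0.57 to 0.94). The galactosyltransferase genes did not all follow, since si:dkey-199f5.8 had 210 and 209 reads (10.1 and 11.1 CPM), with a ratio of 0.13 (-0.16 to 0.41), and b4galt4 and b4galt2 had ratios of -0.10 and -0.36 with intervals that include 0.

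The N-acetylglucosaminyltransferase gene b3gnt7 had 271 sibling and 347 mutant reads (13.1 and 18.4 CPM), a ratio of 0.49 (0.26 to 0.72). Of the same enzyme type, b3gnt2b with 122 and 168 reads at 0.59 (0.25 to 0.94) and si:dkey-160o24.3 with 64 and 105 reads at 0.84 (0.38 to 1.32) were higher beyond counting error, and b3gnt7l at -0.31 (-0.84 to 0.21) was not separated from 0. Over the 9 measured extension genes the level was 67.9 CPM (sibling) and 90.8 CPM (mutant), a ratio of 0.42 (0.32 to 0.52). Without b4galt1l and B4GALT1 it was 48.8 and 58.4 CPM, a ratio of 0.26 (0.13 to 0.38). These enzymes also act on other glycans, so footprints on them are not footprints on keratan sulfate synthesis alone.

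Keratan sulfation differed in sign from gene to gene. The gene chst1, whose product sulfates the galactose of keratan sulfate, had 120 sibling and 43 mutant reads (5.80 and 2.28 CPM), a ratio of -1.34 (-1.89 to -0.83). The gene chst6, whose product sulfates N-acetylglucosamine and is tied to corneal keratan sulfate in humans, had 216 and 267 reads (10.4 and 14.1 CPM), a ratio of 0.44 (0.17 to 0.70). The gene chst2a, of the same activity, had 190 reads in both libraries (9.18 and 10.1 CPM), with a ratio of 0.13 (-0.17 to 0.43). So the galactose sulfotransferase was over 2-fold lower, while 1 N-acetylglucosamine sulfotransferase was higher beyond counting error and chst2a and chst2b, of the same activity, were not separated from 0. The summed level of the 4 genes was 28.1 and 28.5 CPM, with a ratio of 0.02 (-0.15 to 0.20), and the median gene stood at -0.11.

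The rest of the keratan sulfate pathway adds the core fucose of the carrier N-glycan and the sialic acid cap. The fucosyltransferase gene fut8a had 348 sibling and 221 mutant reads (16.8 and 11.7 CPM), a ratio of -0.52 (-0.77 to -0.28). The sialyltransferase gene st3gal2 had 122 and 75 reads (5.89 and 3.97 CPM), a ratio of -0.57 (-1.004 to -0.14). The sialyltransferase gene st3gal3b had 86 and 96 reads (4.16 and 5.08 CPM), with a ratio of 0.29 (-0.14 to 0.73). The first pair was lower beyond counting error, and st3gal3b was not separated from 0. For st3gal3a the sign depended on the unit, at 0.08 from counts and -0.39 from TPM. Over the 5 genes of this step the level was 32.7 and 26.5 CPM, a ratio of -0.30 (-0.47 to -0.13). The 2 core fucosyltransferase genes summed to a ratio of -0.49 (-0.73 to -0.26). For the 3 sialyltransferase genes it was -0.08 (-0.33 to 0.17), an interval that includes 0. Within the keratan sulfate pathway the summed extension genes thus lay above 0 and the core fucosyltransferase genes below 0, while the cap genes were not separated from 0.

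Per length, the order of the members also shifted between the libraries. In the sibling library ext2 had the most footprints at 16.1 TPM, followed by b4galt1l and hs3st3b1b at 13.9 each, chst7 at 12.1, hs6st1a at 11.9 and b3gnt7 at 11.7. In the mutant library b4galt1l led at 21.1 TPM, followed by b3gnt7 at 14.3, ext2 at 11.9, and chst6 and hs3st3b1b at 10.5 each. The gene chst7 stood at 5.56 TPM there. The median of the measured members was 3.41 TPM over both libraries, against 8.19 TPM for all measured genes.

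**Figure D3:**
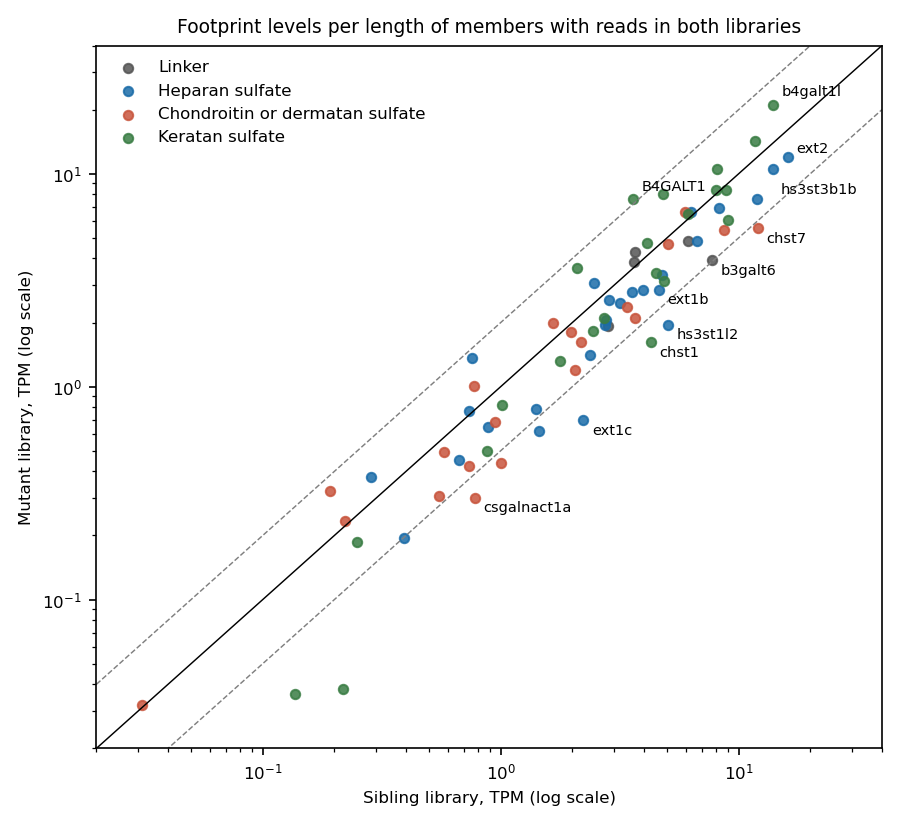
TPM in the sibling (x axis) and mutant library (y axis), both on log scales, for members with reads in both libraries, coloured by chain type. The solid line marks equal levels and the dashed lines 2-fold. The gene b4galt1l lies highest, and chst1, chst7, hs3st1l2 and ext1c are among those below the lower dashed line.

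Zebrafish kept many of these genes as duplicates, named a and b. Of 15 such pairs among the members, both copies were measured in 10, and in 8 of these both had a ratio below 0. Over all measured genes 55.1% had a ratio below 0, and the share of duplicate pairs with both copies below 0 was not computed. The pairs consist of members already counted above, so the count is not a separate result. The exceptions were the chst2 pair, with 1 copy below 0, and the st3gal3 pair, with none below 0. The share of a pair's reads on the b copy moved most, among these 10 pairs, for chpf: it was 28.8% (exact binomial interval 24.2 to 33.8) in the sibling library and 19.1% (14.6 to 24.2) in the mutant library, intervals that meet at the same rounded bound. The count of chpfa was fractional, so this share depends on how its reads were assigned. For ext1a and ext1b the share of the b copy was 62.8% (57.6 to 67.8) and 58.6% (51.9 to 65.1), with overlapping intervals.

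Under the minimum level lay 21 members: 4 of heparan, 13 of chondroitin or dermatan and 4 of keratan sulfate. These include the chondroitin 6-O-sulfotransferase genes chst3a and chst3b, with 16 sibling reads each and 13 and 11 mutant reads, so that of that enzyme type chst7 alone was measured. The gene with the most reads among them was b4galt3, with 24 and 13. Of the 21, 9 had 5 reads or fewer in all, and these lie mostly in the genes annotated as chst12b or Chst12. No read fell in either library on UST, chst12b.6 and 2 genes annotated as Chst12 (ENSDARG00000092200 and ENSDARG00000102655). A count of 0 allows up to 3 reads, or 0.145 CPM (sibling) and 0.159 CPM (mutant).

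The authors' deposited table, which compares the same single libraries by a test not given in the sources used here, lists an FDR under 0.05 for 24 members lower and 6 higher in the mutant library. Of all genes listed there, 21.7% are given as lower and 17.0% as higher. By chain type the authors' deposited table lists 12 heparan sulfate genes as lower and 0 as higher, 7 and 0 for chondroitin or dermatan sulfate, 3 and 6 for keratan sulfate, and 2 and 0 for the linker.

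The proteoglycan core proteins that carry the chains did not all move with the enzymes. Of 15 measured core protein genes of chondroitin or dermatan sulfate, 13 had ratios below 0 and 13 had intervals below 0, or 86.7% against 31.9% of all measured genes, with a median of -0.66 (-0.86 to -0.22) and a summed level of 1100 CPM (sibling) and 724 CPM (mutant). The aggrecan gene acana, of cartilage matrix, had 25.1 and 5.19 CPM, a ratio of -2.27 (-2.60 to -1.96). The gene cspg5b had 41.6 and 10.1 CPM, a ratio of -2.04 (-2.27 to -1.81), and its duplicate cspg5a, the most abundant of the list, had 253 and 139 CPM, a ratio of -0.86 (-0.93 to -0.80). These cspg5 genes encode neuroglycan C, a transmembrane proteoglycan of neurons. The neurocan gene ncanb was lower too, at 145 and 117 CPM (-0.31). In the other direction srgn, the serglycin gene of blood cell granules, had 15.0 and 20.3 CPM, a ratio of 0.44 (0.22 to 0.66). The gene bgnb was not separated from 0, with 5.46 and 5.51 CPM and a ratio of 0.01 (-0.39 to 0.41).

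Of 14 measured core protein genes of heparan sulfate, 8 had ratios below 0 and 6 above 0, with 5 intervals on each side, or 35.7%, against 31.9% below 0 and 25.2% above 0 over all measured genes, and a median of -0.06. The glypican gene gpc3 had 7.39 CPM (sibling) and 2.70 CPM (mutant), a ratio of -1.44 (-1.94 to -0.99), and gpc6a had 7.20 and 4.82 CPM (-0.58). The syndecan gene sdc4 had 179 and 304 CPM, a ratio of 0.77 (0.71 to 0.83), and sdc2 had 88.3 and 105 CPM (0.24). The basement membrane genes agrn, with 315 and 355 CPM (0.17), and col18a1a, with 308 and 364 CPM (0.24), were the most abundant and were higher beyond counting error. The summed level of this list was 1432 CPM (sibling) and 1643 CPM (mutant), a ratio of 0.20 (0.17 to 0.22), opposite in sign to the heparan sulfate enzymes. Of 6 measured keratan sulfate core protein genes, 5 had intervals below 0, or 83.3%, against 31.9% of all measured genes. Among them were ogna (11.9 and 4.18 CPM, -1.50), kera (36.2 and 20.4 CPM, -0.83), fmoda (67.5 and 46.8 CPM, -0.53) and lum (58.7 and 44.7 CPM, -0.39). The gene prelp (1.93 and 0.106 CPM) was also among them, but passed the minimum through the sibling library only. The interval of fmodb (20.9 and 24.2 CPM, 0.21) lay above 0 (0.02 to 0.41). The median of this list, prelp included, was -0.68 (-3.89 to 0.21). Its summed level was 197 CPM (sibling) and 140 CPM (mutant), a ratio of -0.49 (-0.56 to -0.42), opposite in sign to the summed keratan sulfate enzymes.

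Of 8 measured genes of sulfate donor supply, 3 had intervals below 0 and 2 above 0, with a median of -0.04. These shares, 37.5% and 25%, are near those of all measured genes. The PAPS synthase genes papss2a (18.5 and 11.3 CPM, -0.71) and papss1 (110 and 87.3 CPM, -0.34) and the Golgi PAPS transporter gene slc35b2 (16.6 and 11.9 CPM, -0.49) were lower. The sulfate transporter genes slc26a1 (9.52 and 14.8 CPM, 0.64) and slc26a2 (28.6 and 42.6 CPM, 0.58) were higher, and papss2b, the most abundant of the list, was not separated from 0 (127 and 123 CPM, -0.04). Of 16 measured genes of UDP-sugar supply, 3 had intervals below 0 and 8 above 0, or 50% against 25.2% of all measured genes, with a median of 0.17. Among the 8, slc35a3b (0.966 and 1.91 CPM) passed the minimum through the mutant library only. The UDP-glucose dehydrogenase gene ugdh, whose product makes the glucuronic acid donor of heparan and chondroitin sulfate, had 44.7 and 30.1 CPM, a ratio of -0.57 (-0.72 to -0.42), and ugp2a had 28.7 and 21.8 CPM (-0.40). The hexosamine branch supplies N-acetylglucosamine to heparan and keratan sulfate and to other glycans. There gfpt2 had 46.6 and 89.4 CPM, a ratio of 0.94 (0.82 to 1.05), gnpnat1 had 7.01 and 11.0 CPM (0.64) and gfpt1 had 141 and 163 CPM (0.20).

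Of 12 measured genes listed under lysosomal breakdown, 11 had ratios below 0, with a median of -0.31 (-0.59 to -0.03). The interval lay below 0 for 6, or 50% against 31.9% of all measured genes, and above 0 for none. The list includes arsa (9.62 and 6.35 CPM, -0.60, interval below 0), whose product acts on a sulfated lipid, so its ratio does not describe chain breakdown. Of the other genes, naglu (10.2 and 6.78 CPM, -0.59) was lowest at 5 CPM or more. The abundant hexb (60.6 and 59.9 CPM, -0.02) and hgsnat (51.7 and 52.1 CPM, 0.01) were not separated from 0. Of 7 measured genes listed under extracellular editing, 2 had intervals below 0 and 3 above 0, or 28.6% and 42.9%. These counts are too small to set apart from the shares of all measured genes. The list holds notum1a and notum2, whose products remove a lipid from Wnt proteins and are not chain-editing enzymes. Of the intervals above 0, only that of sulf1 belongs to a chain-editing gene. The extracellular 6-O-endosulfatase genes sulf2a (47.1 and 25.3 CPM, -0.90) and sulf2b (51.0 and 38.2 CPM, -0.42) were lower, and sulf1 (36.1 and 40.8 CPM, 0.18, with an interval of 0.03 to 0.32), notum1a (23.6 and 28.6 CPM, 0.28) and notum2 (7.25 and 11.4 CPM, 0.66) were higher. Of 6 measured genes for hyaluronan, a glycosaminoglycan made without a core protein, 1 had its interval below 0 and 2 above 0. These shares, 16.7% and 33.3%, rest on too few genes to set apart from the 31.9% and 25.2% of all measured genes. The most abundant were CEMIP (20.4 and 19.4 CPM, -0.08) and cemip2 (15.8 and 18.6 CPM, 0.23), whose products take part in hyaluronan breakdown in mammals.

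**Figure D4:**
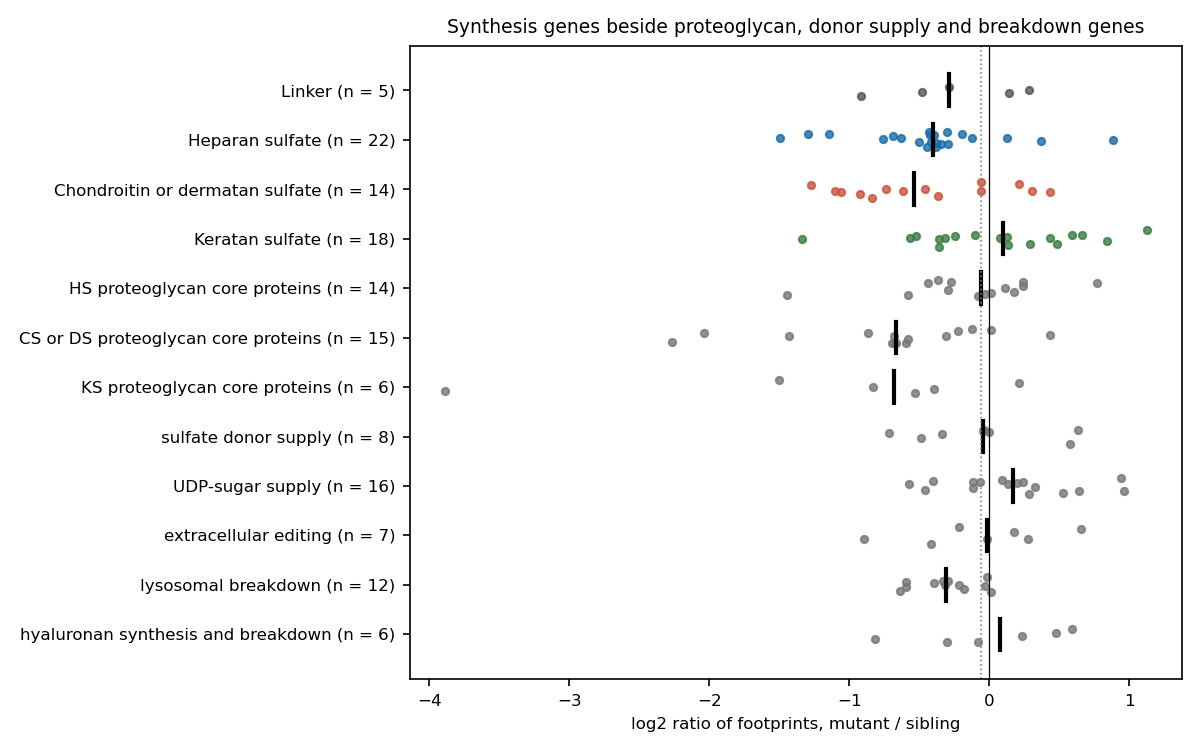
Log2 ratio of mutant over sibling footprints (x axis) for measured genes in each row, with members in colour and the other pathway lists in grey. Points are genes, black bars are row medians, and the dotted line is the median of all measured genes. Core proteins of keratan sulfate (median -0.68) and of chondroitin or dermatan sulfate (-0.66) and lysosomal breakdown genes (-0.31) lie lower, and UDP-sugar supply genes (0.17) higher. The keratan sulfate core median includes prelp, which passed the minimum through the sibling library only. The UDP-sugar median includes slc35a3b, which passed through the mutant library only.

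Markers of other tissues and cell types also differed between the libraries. The 8 cartilage markers summed to 2951 CPM (sibling) and 2016 CPM (mutant), with 7 of 8 lower, and matn1 went from 68.0 to 0.530 CPM. The aggrecan gene acana is both a cartilage marker and a core protein of the list above. The 4 radial glia markers summed to 1901 and 908 CPM, with 3 of 4 lower, and the 4 neuron markers to 2242 and 1913 CPM, with 2 of 4 lower. All 6 skeletal muscle markers were lower, at 42788 and 14103 CPM, as were all 5 lens markers, at 3229 and 1241 CPM, and 3 of 5 retina markers, whose sum was 312 and 48.2 CPM. Epidermis markers were higher in 4 of 5 genes, at 9310 and 14744 CPM, and endothelium markers in 2 of 3 measured genes, at 73.5 and 99.7 CPM. No marker in these lists was at 0 in either library. Cartilage is rich in chondroitin and keratan sulfate proteoglycans. The part of these tissues and cell types in the enzyme ratios was not tested. In such bulk tissue, fewer cells of a type and less RNA per cell cannot be told apart.

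RNA bisulfite sequencing reads cytosines of messenger RNA that resist conversion as 5-methylcytosine (m5C). The authors' deposited table of differential loci holds 617 distinct positions in 92 genes, and ext1b is the 1 member among them, with 22 loci, which ranks it 4 among the genes by number of loci. None of the matched genes of the pathway and marker lists has a listed locus, and the 9 list entries that matched no gene were not looked up. Both tables compare a condition 1 with a condition 2, and the headers and labels do not say which genotype each is, so directions are by condition only. The depth behind each level is unknown, and the tables hold only loci and regions that passed the authors' threshold.

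The 22 loci of ext1b lie in 1 listed region at chr19:46487747-46488018 of GRCz11, which spans 272 bases. Neighbouring loci are 2 to 28 bases apart, with a median of 13. The authors' deposited table gives ext1b the span from 46421348 to 46566430, so the region starts 66399 bases from the low end of the gene, or 45.8% of the way along. Whether it lies in an exon, an intron or an untranslated region was not analysed here. In the authors' deposited table the mean level over the region is a fraction of 0.236 in condition 1 and 0.000218 in condition 2. Per locus, the level in condition 1 takes only 3 values, 0.246 at the first 2 loci, 0.240 at the next 18 and 0.189 at the last 2, so the 22 loci are not 22 separate measurements. All 22 are higher in condition 1, with standard errors of 0.0424 to 0.0793 and unadjusted p-values from 5.24e-08 to 0.00250 in the authors' deposited table.

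Among the 52 listed regions that of ext1b ranks 4 in length and 47 in the size of its difference. The median region spans 116.5 bases with 7.5 cytosines and a difference of 0.395, so the ext1b region is long and its difference is small for this table. The footprint ratio of ext1b was -0.63 (-0.95 to -0.32). That of ext1a, which has no listed loci, was -0.38 (-0.78 to 0.01), with an overlapping counting interval. The gene ext1c, also without listed loci, stood at -1.49 but passed the minimum through the sibling library only. A link between listed loci and footprints was not tested.

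**Figure D5:**
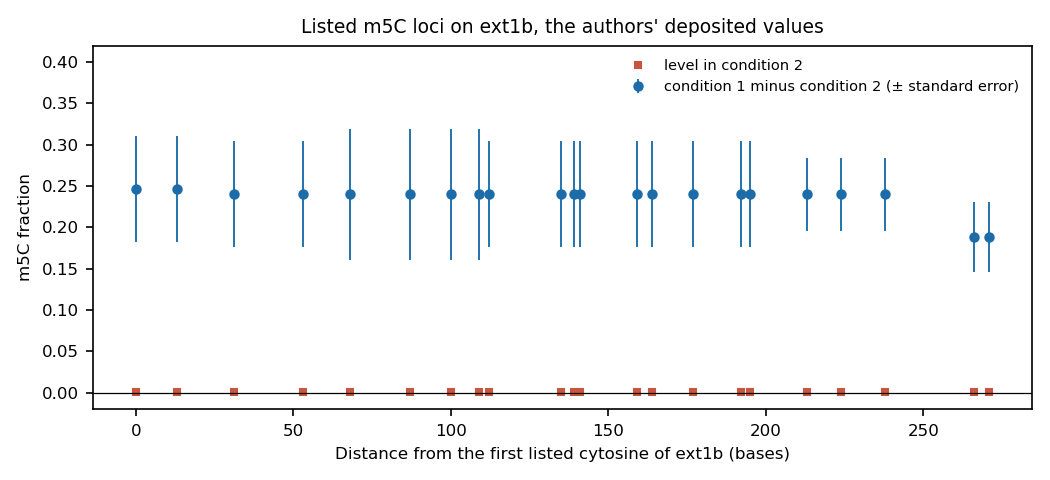
Difference in m5C fraction between condition 1 and condition 2 (circles, with the authors' standard errors as bars) and level in condition 2 (squares) at the 22 listed ext1b loci, against distance in bases from the first locus (x axis). Differences hold to 3 plateaus between 0.189 and 0.246, and the condition 2 level is near 0 throughout.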

How the data were processed

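Footprint reads per gene are expected counts, with no normalization, and TPM is scaled per gene length and to a fixed library total, as the authors deposited them per the file headers. The authors also deposited a log2 fold change, a p-value and an FDR per gene. The deposited bisulfite tables give m5C fractions per condition, their difference, its standard error, a p-value and, per region, a count of cytosines. The submitters' processing notes name the build GRCz11 and, without role or order, methylKit, SAMtools, STAR, HISAT2, Bowtie2, fastp and Trimmomatic 0.38. The counting program is not given in the sources used here.

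Counts were rounded, scaled to library totals, and compared as log2((mutant + 0.5)/(sibling + 0.5)) on the library scale, for genes that average 1 CPM or more. Each 95% interval of a ratio is an exact (Clopper-Pearson) binomial interval of the mutant share of a gene's reads. These intervals, those of summed counts and the floors cover counting error only, since each genotype has 1 library. Intervals beside medians are order-statistic intervals over genes and are not computed from counting error. Whether reads carried molecular identifiers is not given in the sources used here, and PCR duplicates were not allowed for. Ratios and intervals were tested on simulated counts that held counting error only. That test does not cover replicate error, PCR duplicates or fractional counts. Python 3.11.15, numpy 2.4.6, pandas 2.3.3, scipy 1.17.1 and, for TMM factors, edgeR 4.0.16 in R 4.3.3 were used. Roles were assigned by symbol for 66 members and by the KEGG orthology number in the deposited table for 14. Of 140 entries in the 8 pathway and 8 marker lists, 9 matched no listed gene.

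Bisulfite rows did not line up with their header, so columns were matched by testing their relations on the values, and duplicate positions were counted once. Positions were read as counted from 0 and are printed counted from 1. No column lacked a sample of the series. Groups come from the genotype labels. Members were described in full where at least 2-fold different, among the 3 most abundant of their step, of the ext family, or a duplicate of a 2-fold gene; other members and list genes were described by ranges or by the 2 most changed in each direction at 5 CPM and the 2 most abundant. Members named beyond that rule, such as extl2, b3gat3, b4galt7, chpfb, b3gnt2b and st3gal3a, were chosen after their values were seen. Members and lists were chosen with earlier results of these data known. No sequences were used here.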

Additional observations from a re-analysis of the deposited data

How the results depend on the processing

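Of the 59 measured members, 41 had a ratio below 0 under every setting that kept them and 17 above 0, and st3gal3a changed sign (0.08 from counts, -0.39 from TPM). TMM scaling or median-of-ratios factors raise the median of all genes by 0.05 and TPM lowers it by 0.06. Members with intervals below 0 numbered 26 with library totals and with TMM, against 31.9% and 27.7% of all measured genes. Those with intervals above 0 numbered 6 and 8, against 25.2% and 28.4%, the added ones being hs3st3l and chpf2. The lower bounds of fmodb (0.02) and sulf1 (0.03) are smaller than the downward shift in TPM, for which no intervals were computed. The summed log2 ratio of all members, -0.17 as reported, was -0.12 under TMM, -0.12 under median-of-ratios factors and -0.23 with the 49 members that have whole-number counts. That of chondroitin or dermatan sulfate, -0.37 as reported, was -0.49 in TPM and -0.66 with whole-number counts only, which leaves out chpf2 and chpfa. That of keratan sulfate, 0.18 as reported, was 0.29 at a minimum of 5 CPM and 0.0503 with whole-number counts only, which leaves out B4GALT1 and b4galt1l. Members at least 2-fold lower, 7 as reported, numbered 4 with a pseudocount of 5, 11 without a minimum, 1 at a minimum of 5 CPM, and 3 where each library had to reach 1 CPM, a setting chosen after seeing the data. Members at least 2-fold higher, 1 as reported, numbered 2 without a minimum and 0 with whole-number counts only. The median of the keratan sulfate genes was -0.01 in TPM or with whole-number counts only, -0.17 without a minimum, and 0.44 at 5 CPM. That of the heparan sulfate genes ranged from -0.46 to -0.35 over these settings. The median of the chondroitin or dermatan sulfate genes, -0.53 as reported, was -0.74 with whole-number counts only and -0.39 without a minimum. It was -0.41 at a minimum of 5 CPM or where each library had to reach 1 CPM. No paired analysis was possible because each genotype has 1 library. Precision follows the reads: the counting interval ran from -0.54 to -0.22 for ext2, which had the most reads, and from -2.66 to -0.53 for ext1c.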

Other observations

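Enzymes of the pathway that the deposited pathway text does not name gave further values. The gene fam20b, whose product phosphorylates the linker xylose, had 133 sibling and 91 mutant reads, a log2 ratio of -0.41 (95% counting interval -0.82 to -0.02). The gene pxylp1, whose product removes that phosphate, had 149 and 58 reads, a ratio of -1.22 (-1.69 to -0.78). The 3-O-sulfotransferase gene hs3st4 had 29 and 13 reads (1.40 and 0.688 CPM), a ratio of -0.996 (-2.09 to -0.04), and passed the minimum through the sibling library only. The gene b3gnt2l, related to the b3gnt2 genes, had 121 and 152 reads, a ratio of 0.46 (0.11 to 0.82). These genes were chosen with the results of the members known.

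Of the 80 members, 12 have a deposited count that is not a whole number in at least 1 library, as do 25.7% of all listed genes. Among these 12 members, 8 pairs within a library sum to a whole number within 0.006 reads. In 6 of the 8 the genes share an enzyme type, among them ndst3 with ndst1a, chpf2 with chpfa, hs6st1a with hs6st1b, B4GALT1 with b4galt1l, and hs3st3b1b with si:ch211-216b21.2. The other 2 join a galactosyltransferase to a 6-O-sulfotransferase gene, which shows that such sums also arise between unrelated genes.

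After allowing for the offset between the units, the TPM ratio and the count ratio differ by more than 0.1 on the log2 scale for 5 measured members, both ratios being taken without a pseudocount. The shift is -0.41 for st3gal3a, -0.15 for b3gnt7, 0.12 for chpfb, 0.20 for chsy3 and 0.20 for b3gnt2b.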
